A study of Mus musculus with 6 samples.

Results

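The 9 genes described here encode the ligands and receptors of vascular endothelial growth factor (VEGF) signalling: Vegfa, Vegfb, Vegfc and Pgf among the ligands, Flt1, Kdr and Flt4 among the receptor tyrosine kinases, and the neuropilins Nrp1 and Nrp2. They were chosen by gene symbol from a table of 24421 genes, and all 9 were found and passed the filter on low counts. The samples are cortex of C57BL/6 mice, analysed by bulk RNA sequencing from animals that underwent MCAO, in which the middle cerebral artery is occluded to cause an ischaemic stroke. In the NeuroD1_MCAO group, 3 samples came from mice treated with NeuroD1, a proneural transcription factor that the series title describes as an intravenous gene therapy. In the GFP_MCAO group, 3 samples came from mice treated with green fluorescent protein, the control. All 6 samples share the stroke, and uninjured cortex was not analysed here. No source used here states the vector and its promoter, the time after stroke, or the age and sex of the mice. The labels do not say that the samples of a group came from separate animals, so the p-values cover only variation among these libraries, part of which may be technical.

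VEGF-A is the main growth factor for blood vessels and acts on endothelial cells chiefly through the receptor encoded by Kdr. The receptor encoded by Flt1 binds VEGF-A tightly, signals weakly and limits the amount that reaches Kdr, and it is also the receptor of VEGF-B and placental growth factor (Pgf). VEGF-C acts mainly through Flt4, the receptor of lymphatic and sprouting vessels. Neuropilins are co-receptors that bind VEGF together with Kdr or Flt4 and, in neurons and other cells, bind class 3 semaphorins instead. In the injured brain, VEGF-A made by astrocytes, neurons and macrophages both drives new vessels and makes existing ones leaky.

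The promoters of the members whose levels differed most are shown because 3 of these genes were lower and the neuropilins were higher with NeuroD1. Sequences are RefSeq's on build GRCm38.p6, from 250 bases before to 50 bases after an annotated start, on the strand of the gene. Capitals mark matches on either strand to GGGCGG, the Sp1 motif, or ACGTG, the core of the hypoxia response element, and 2 matches in the Nrp2 window overlap each other. Vegfa has 2 starts in the table, and the second lies inside the gene. By the gene coordinates given below, the windows of Flt4 and Nrp1 also lie inside their genes.
Vegfa, first start, chr17:46032328-46032627, minus strand: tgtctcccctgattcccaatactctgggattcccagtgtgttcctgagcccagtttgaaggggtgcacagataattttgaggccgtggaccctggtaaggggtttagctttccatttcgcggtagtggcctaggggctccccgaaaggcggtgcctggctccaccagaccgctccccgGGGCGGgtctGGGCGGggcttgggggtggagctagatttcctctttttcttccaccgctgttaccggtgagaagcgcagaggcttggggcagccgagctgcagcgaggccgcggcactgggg
Vegfa, second start, chr17:46025114-46025413, minus strand: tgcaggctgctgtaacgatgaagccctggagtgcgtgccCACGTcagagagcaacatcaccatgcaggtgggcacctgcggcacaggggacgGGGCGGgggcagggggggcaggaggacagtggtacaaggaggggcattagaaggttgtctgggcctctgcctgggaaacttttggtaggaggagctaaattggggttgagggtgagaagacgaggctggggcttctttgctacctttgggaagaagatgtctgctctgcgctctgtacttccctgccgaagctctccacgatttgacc
Flt1, chr5:147725962-147726261, minus strand: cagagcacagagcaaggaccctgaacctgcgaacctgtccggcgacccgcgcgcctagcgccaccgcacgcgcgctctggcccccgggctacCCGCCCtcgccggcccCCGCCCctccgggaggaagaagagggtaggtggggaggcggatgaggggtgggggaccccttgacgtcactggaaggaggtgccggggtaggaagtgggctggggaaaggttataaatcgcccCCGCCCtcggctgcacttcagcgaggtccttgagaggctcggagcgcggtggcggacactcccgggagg
Flt4, chr11:49609429-49609728, plus strand: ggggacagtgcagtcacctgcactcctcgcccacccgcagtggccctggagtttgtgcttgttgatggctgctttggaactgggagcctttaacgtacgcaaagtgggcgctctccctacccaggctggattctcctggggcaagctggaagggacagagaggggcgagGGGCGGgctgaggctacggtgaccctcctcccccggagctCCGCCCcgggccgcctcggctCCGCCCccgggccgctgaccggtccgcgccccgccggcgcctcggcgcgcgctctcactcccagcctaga
Nrp1, chr8:128358823-128359122, plus strand: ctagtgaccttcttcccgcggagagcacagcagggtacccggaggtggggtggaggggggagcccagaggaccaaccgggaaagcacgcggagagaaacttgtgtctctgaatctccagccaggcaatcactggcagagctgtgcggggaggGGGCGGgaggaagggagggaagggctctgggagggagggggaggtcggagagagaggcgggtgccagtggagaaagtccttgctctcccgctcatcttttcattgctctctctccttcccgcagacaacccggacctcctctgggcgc
Nrp2, chr1:62703067-62703366, plus strand: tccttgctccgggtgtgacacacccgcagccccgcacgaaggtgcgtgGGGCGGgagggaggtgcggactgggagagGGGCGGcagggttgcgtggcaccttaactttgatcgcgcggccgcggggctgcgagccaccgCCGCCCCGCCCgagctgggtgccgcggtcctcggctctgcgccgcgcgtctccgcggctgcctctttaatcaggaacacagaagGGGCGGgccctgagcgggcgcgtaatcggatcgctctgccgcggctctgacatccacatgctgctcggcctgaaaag
The Sp1 motif was in a promoter of all 9 members, in 10 of their 11 windows, against 35.7% of the 32851 promoters in the table. Member windows were between 59.3% and 75.3% G and C, against a median of 52.7% over all promoters. The ACGTG core was in 1 of the 11 windows, the second of Vegfa, against 19.6% of all promoters. That window lies inside the gene, and sequence outside the windows was not searched, so hypoxia response elements elsewhere would be missed. The ETS motif CCGGAAG, searched on both strands, was in 0 of the 11 windows, against 8.86% of all promoters. The genes that were lower and those that were higher both held the Sp1 motif.

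Total counts were between 10843273 and 13440244 in the NeuroD1 libraries and between 7753101 and 9698795 in the GFP libraries. Levels are given as CPM, read counts scaled to a common library size with TMM, where 1 count was worth 0.0753 to 0.0968 CPM in the NeuroD1 libraries and 0.101 to 0.134 CPM in the GFP libraries. Neurod1, the delivered gene, was at 14.6 to 48.5 CPM with NeuroD1 and 3.87 to 6.48 CPM with GFP, and NeuroD1 replicate 2 had the lowest level of its group. Among pairs of libraries of the same group, those with NeuroD1 replicate 2 had the highest chi-square per gene, 89.6 and 126. The highest GFP value was 74.5, between replicates 1 and 2. This measure rises with depth and the NeuroD1 libraries were deeper, so it does not rank the pairs across groups. No pair was near the value of about 1 that sampling noise gives. GFP replicate 2 held 7.25% of its counts in the ribosomal RNA precursor Rn45s, against 0.220% to 1.22% in the other 5 libraries. It also had the highest summed level of 7 choroid plexus markers, 818 CPM, against 16.8 to 87.3 CPM with NeuroD1 and 40.3 and 141 CPM in the other GFP libraries. Neuronal markers summed to between 3696 and 9934 CPM with NeuroD1 and between 5347 and 10098 CPM with GFP, and all 12 of these neuronal markers were detected.

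With NeuroD1 all 4 ligands and all 3 receptor kinases had lower fitted levels than with GFP, and both neuropilins had higher ones. Vegfa was 2.0-fold lower, Flt1 1.80-fold lower and Flt4 2.0-fold lower, while Nrp1 was 2.65-fold and Nrp2 2.57-fold higher. By edgeR's quasi-likelihood test, 0 of the 14852 genes tested passed an adjusted p of 0.05 (Benjamini-Hochberg), members included, and member adjusted p-values lay between 0.136 and 0.406. At an unadjusted p under 0.05 there were 6 of 9 members (66.7%), 2 higher and 4 lower, against 24.0% of all genes tested, of which 12.5% were higher and 11.5% lower. The groups did not overlap in 5 of the 9 members (55.6%), against 29.6% of all genes, and without NeuroD1 replicate 2 in 8, against 45.7% of all genes in the same 5 libraries. DESeq2, an alternative test, called 4 members at an adjusted p of 0.05 (Vegfa, Flt1, Nrp1 and Nrp2), against 8.91% of the genes it tested, and limma-voom called 0 members and 0 genes. At an unadjusted p under 0.05 limma-voom had 3529 genes and edgeR 3564.

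**Figure D1:**
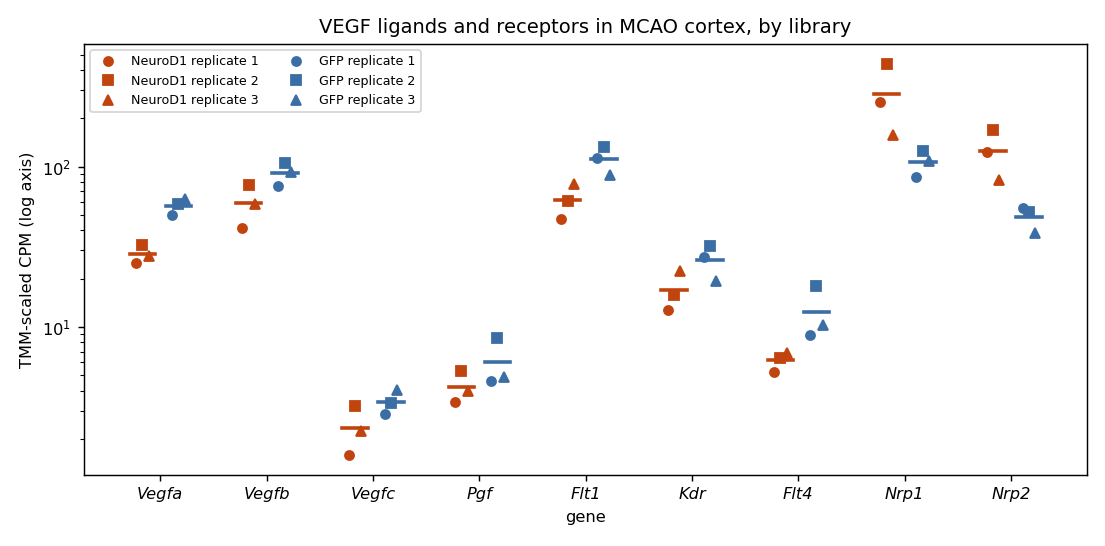
TMM-scaled CPM of each gene on a log axis, with NeuroD1 libraries (orange) left of GFP libraries (blue), marker shapes for replicates 1 to 3 and a bar at the group mean. All NeuroD1 points lie below all GFP points for Vegfa, Flt1 and Flt4 and above them for Nrp1 and Nrp2.

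Vegfa (ENSMUSG00000023951.17, chromosome 17, 46016993 to 46032369, minus strand, GRCm38) was at 25.2, 32.2 and 27.8 CPM in NeuroD1 replicates 1, 2 and 3, against 49.7, 58.1 and 62.6 CPM in the GFP replicates. Every NeuroD1 library was below every GFP library, and the gap between the groups was wider than the spread within either. The mean was 28.4 ± 3.57 CPM with NeuroD1 and 56.8 ± 6.53 CPM with GFP (SD, n = 3 each). Its log2 fold change was -1.0 (SE 0.20, 95% interval -1.45 to -0.55, edgeR adjusted p = 0.136), which ranked it 65 by p among the 14852 genes. The fold change stayed between -1.11 and -0.91 with any 1 library left out, and its unadjusted p was under 0.05 in all 6 of these fits. DESeq2 gave an adjusted p of 0.00174 for Vegfa. Counts are per gene, so splice forms of Vegfa that differ in how tightly they bind the matrix were not separated.

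Vegfb encodes a ligand of Flt1 that is linked to the survival of neurons and to lipid uptake rather than to vessel growth. It was at 41.4, 76.8 and 58.8 CPM in NeuroD1 replicates 1 to 3, against 76.1, 105 and 92.8 CPM in the GFP replicates. NeuroD1 replicate 2 and GFP replicate 1 met at about the same level, so the groups overlapped. The log2 fold change was -0.63 (SE 0.26, edgeR adjusted p = 0.193). Its unadjusted p was under 0.05, but the log2 fold change was -0.14 and the adjusted p 0.727 once each library was corrected for transcript length and GC content in the edgeR fit. The unadjusted p was also above 0.05 in 4 of the 6 fits with 1 library left out, those without NeuroD1 replicate 1 (-0.42), NeuroD1 replicate 3 (-0.62), GFP replicate 2 (-0.52) or GFP replicate 3 (-0.62). In the other two fits, without NeuroD1 replicate 2 (-0.86) or GFP replicate 1 (-0.77), it was under 0.05.

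Vegfc and Pgf were scarce. Vegfc, the lymphatic growth factor, had 21, 33 and 25 counts in the NeuroD1 replicates and 28, 25 and 37 in the GFP replicates, or 2.34 ± 0.810 CPM with NeuroD1 and 3.40 ± 0.595 CPM with GFP (SD, n = 3 each). Pgf, a ligand of Flt1 that is induced in inflamed and injured tissue, had 45, 55 and 44 counts in the NeuroD1 replicates and 45, 64 and 45 in the GFP replicates, or 4.22 ± 0.994 and 6.00 ± 2.21 CPM. The groups overlapped for both genes. Their log2 fold changes were -0.54 (95% interval -1.44 to 0.35) and -0.50 (-1.34 to 0.33), with edgeR adjusted p-values of 0.403 and 0.406, so no difference was detectable at this depth and neither was a like level shown. Without GFP replicate 2 the value for Pgf was -0.16. Vegfd, a further ligand of Flt4 that the table lists under its older symbol Figf, was at 3.08 ± 1.10 CPM with NeuroD1 and 5.83 ± 3.34 CPM with GFP (edgeR adjusted p = 0.319).

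Among the receptor kinases, Flt1 (chromosome 5, 147561604 to 147726011) was the most abundant, at 46.9, 61.3 and 78.3 CPM in NeuroD1 replicates 1 to 3 and 114, 133 and 89.3 CPM in the GFP replicates. The highest NeuroD1 library stayed below the lowest GFP library. The log2 fold change of Flt1 was -0.85 (SE 0.25, edgeR adjusted p = 0.141), and it lay between -1.04 and -0.68 with any 1 library left out. DESeq2 gave an adjusted p of 0.0430. With the correction for transcript length and GC content in the edgeR fit, the log2 fold change of Flt1 was -1.04. The gene also makes a soluble form that traps VEGF, which these counts do not separate from the membrane form.

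Kdr (chromosome 5, 75932827 to 75978458), the main signalling receptor, was at 12.7, 15.8 and 22.4 CPM with NeuroD1 and 27.4, 31.9 and 19.4 CPM with GFP. NeuroD1 replicate 3 was above GFP replicate 3, so the groups overlapped. The log2 fold change was -0.63 (SE 0.29, 95% interval -1.29 to 0.03, edgeR adjusted p = 0.223), and its unadjusted p was just above 0.05. The unadjusted p was under 0.05 with upper quartile scaling (-0.70), with the correction for transcript length and GC content (-0.82), without NeuroD1 replicate 3 (-0.88) and without GFP replicate 3 (-0.80). It was farther above 0.05 without NeuroD1 replicate 1 (-0.45), NeuroD1 replicate 2 (-0.57), GFP replicate 1 (-0.62) or GFP replicate 2 (-0.47). The same held with the replicate block (-0.64).

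Flt4 (chromosome 11, 49609263 to 49652739), the VEGF-C receptor, was the scarcest receptor, at 5.20, 6.39 and 6.91 CPM with NeuroD1 and 8.91, 18.0 and 10.2 CPM with GFP. The groups did not overlap, and GFP replicate 2 stood well above the other GFP libraries. The log2 fold change was -1.0 (SE 0.33, edgeR adjusted p = 0.147). Without GFP replicate 2 it was -0.63 and without NeuroD1 replicate 1 it was -0.88, each with an unadjusted p above 0.05, so the unadjusted call rests on those libraries.

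Both neuropilins went the other way. Nrp1 (chromosome 8, 128358604 to 128503363), co-receptor of VEGF-A and of semaphorin 3A, was at 252, 440.2 and 157 CPM in NeuroD1 replicates 1 to 3 and 86.1, 126 and 108 CPM in the GFP replicates. Its lowest NeuroD1 library was above its highest GFP library, and the NeuroD1 libraries were much more spread, with a mean of 283 ± 144 CPM against 107 ± 20.0 CPM with GFP (SD, n = 3 each). The log2 fold change was 1.41 (SE 0.37, 95% interval 0.55 to 2.26, edgeR adjusted p = 0.137), and 0.95 without NeuroD1 replicate 2, the highest library. DESeq2 gave an adjusted p of 0.00901.

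Nrp2 (chromosome 1, 62703285 to 62818695), co-receptor of VEGF-C and of semaphorin 3F, was at 124, 169 and 82.2 CPM with NeuroD1 and 55.5, 52.1 and 38.7 CPM with GFP. The groups did not overlap, and the NeuroD1 libraries stood in the same order as for Nrp1. The log2 fold change was 1.36 (SE 0.29, edgeR adjusted p = 0.136), between 1.09 and 1.59 with any 1 library left out, and DESeq2 gave an adjusted p of 0.00224. Every fit with a library left out kept the unadjusted p of Nrp1 and of Nrp2 under 0.05. The annotation places the microRNA gene Mir1903, listed at 0 counts, on the same strand within Nrp1 with 80 shared exonic bases, and 2 genes that are not in the table used here within Nrp2, with no shared exonic base.

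**Figure D2:**
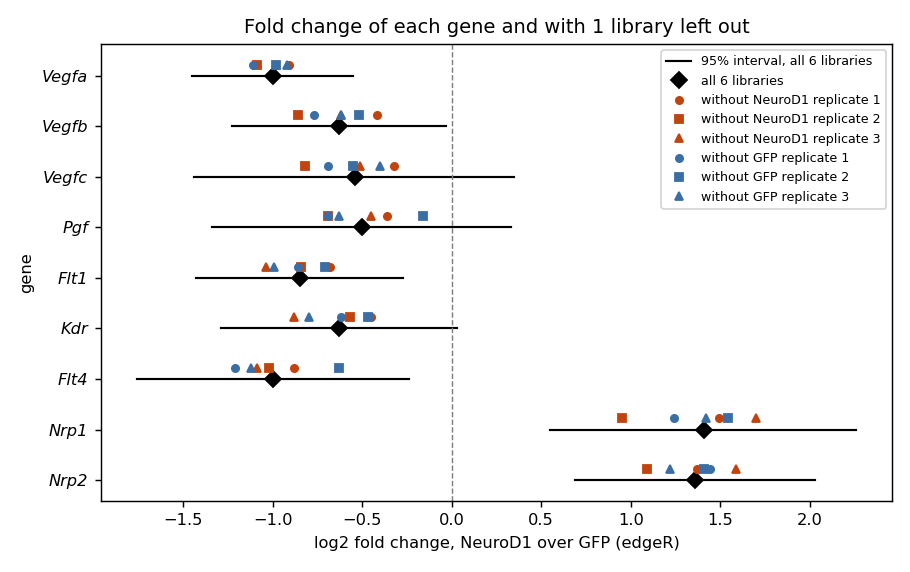
Log2 fold change of NeuroD1 over GFP for each gene with all 6 libraries (diamond, with its 95% interval) and with 1 library left out (coloured points above it). The intervals of Vegfa, Vegfb, Flt1 and Flt4 lie below 0 and those of Nrp1 and Nrp2 above it, while those of Vegfc, Pgf and Kdr span 0.

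Levels of different genes were compared per kilobase of exon, from GENCODE M21. On this scale the order with NeuroD1 was Vegfb (36.8 CPM per kilobase), Nrp1 (28.9), Nrp2 (10.6), Vegfa (6.63), Flt1 (4.60), Kdr (1.88), Pgf (1.45), Vegfc (0.955) and Flt4 (0.749). With GFP the order of levels per kilobase was Vegfb (56.9), Vegfa (13.3), Nrp1 (10.9), Flt1 (8.30), Nrp2 (4.12), Kdr (2.91), Pgf (2.07), Flt4 (1.50) and Vegfc (1.39). Vegfb was the most abundant ligand per length in both groups. With NeuroD1 both neuropilins stood above Vegfa in the order, though Nrp2 and Vegfa overlapped in their libraries. With GFP Vegfa and Nrp1 overlapped in theirs. Neighbours in the NeuroD1 order whose libraries did not overlap were Nrp1 and Nrp2, Vegfa and Flt1, and Flt1 and Kdr. With GFP they were Vegfb and Vegfa, and Flt1 and Nrp2, and all other neighbours overlapped. The sum of all 9 members, on the CPM scale, was 513, 810.2 and 439 with NeuroD1 and 425, 537 and 430.1 with GFP, so the groups overlapped in their total.

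The receptor kinases are made mostly by endothelial cells, so their levels were set beside 20 other endothelial markers. All 20 markers had lower fitted levels with NeuroD1, 15 of them at an unadjusted edgeR p under 0.05, with a median log2 fold change of -1.14, against 0.02 over all genes tested. Their summed level was 463, 598 and 827 CPM in NeuroD1 replicates 1 to 3 and 999.5, 1600.0 and 1041 CPM in the GFP replicates, with no overlap. The markers with the smallest p were Tek, the angiopoietin receptor (2.75-fold lower), and Sox17, a transcription factor of arterial endothelium (3.37-fold lower). In bulk tissue, fewer endothelial cells and less RNA per cell cannot be told apart.

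Relative to the mean log2 level of those markers in the same library, Flt1 was at 1.49, 1.58 and 1.28 with NeuroD1 and 1.54, 1.01 and 1.07 with GFP. Kdr relative to the markers was at -0.39, -0.38 and -0.52 with NeuroD1 and -0.51, -1.05 and -1.13 with GFP. For both receptors GFP replicate 1 fell among the NeuroD1 libraries and the others lay lower, so the groups touched or overlapped. The differences in log2 ratio, NeuroD1 minus GFP, were 0.24 for Flt1, 0.47 for Kdr and 0.16 for Flt4 (two-sided exact permutation p = 0.3, 0.2 and 0.4). With the median of the markers in place of their mean they were 0.55, 0.78 and 0.47. With 1 library left out the lowest and highest values were 0.15 (without GFP replicate 2) and 0.41 (without GFP replicate 1) for Flt1. For Flt4 they were 0.07 (without NeuroD1 replicate 1 or 2) and 0.34 (without NeuroD1 replicate 3), and its value was 0.11 without GFP replicate 1 and 0.14 without GFP replicate 3. Their signs are opposite to those of the unscaled fold changes. Set against endothelial markers, none of the 3 receptor kinases had a lower mean with NeuroD1. The correction for transcript length and GC content was not applied to these ratios. In the edgeR fit it moved the log2 fold change of Flt1 from -0.85 to -1.04 and that of Kdr from -0.63 to -0.82. Flt4 was at -1.05 with it. Whether the ratios keep their signs under this correction was not tested.

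The neuropilins stood far from this pattern. Relative to the endothelial markers, Nrp1 was at 3.91, 4.42 and 2.28 on the log2 scale with NeuroD1 and 1.14, 0.93 and 1.34 with GFP. Nrp2 was at 2.89, 3.04 and 1.35 with NeuroD1 and 0.50, -0.34 and -0.14 with GFP. The differences were 2.40 and 2.42, with no overlap, each with an exact permutation p of 0.1, the smallest that 3 against 3 can give, and 0.333 after adjustment over the 10 ratios tested. The Nrp1 to Nrp2 ratio itself had a mean log2 of 1.11 ± 0.24 with NeuroD1 and 1.13 ± 0.44 with GFP (SD, n = 3 each; exact permutation p = 1).

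Ratios between members need no scaling between libraries, but effects of transcript length and GC content that differ between libraries remain in them. The log2 ratio of Flt1 to Kdr was tight, at 1.88, 1.96 and 1.80 with NeuroD1 and 2.05, 2.06 and 2.20 with GFP, with no overlap. Its difference was -0.22 (exact permutation p = 0.1, adjusted 0.333) and lay between -0.26 and -0.18 with any 1 library left out. The Vegfa to Vegfb ratio differed by -0.34 (p = 0.2), Vegfa to Pgf by -0.53 (p = 0.3) and Vegfa to Kdr by -0.36 (p = 0.6), all by the exact permutation test and all with overlapping groups. The Vegfa to Vegfb difference was -0.22 without NeuroD1 replicate 2. The Vegfa to Pgf difference was -0.80 without GFP replicate 2 and -0.34 without GFP replicate 3. The Vegfa to Kdr difference was -0.13 without NeuroD1 replicate 3 and -0.09 without GFP replicate 3. With 3 samples in each group no ratio could reach 0.05, so these p-values do not show that the ratios were alike. Vegfa to Kdr was the only ratio of a ligand to a receptor that was tested.

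**Figure D3:**
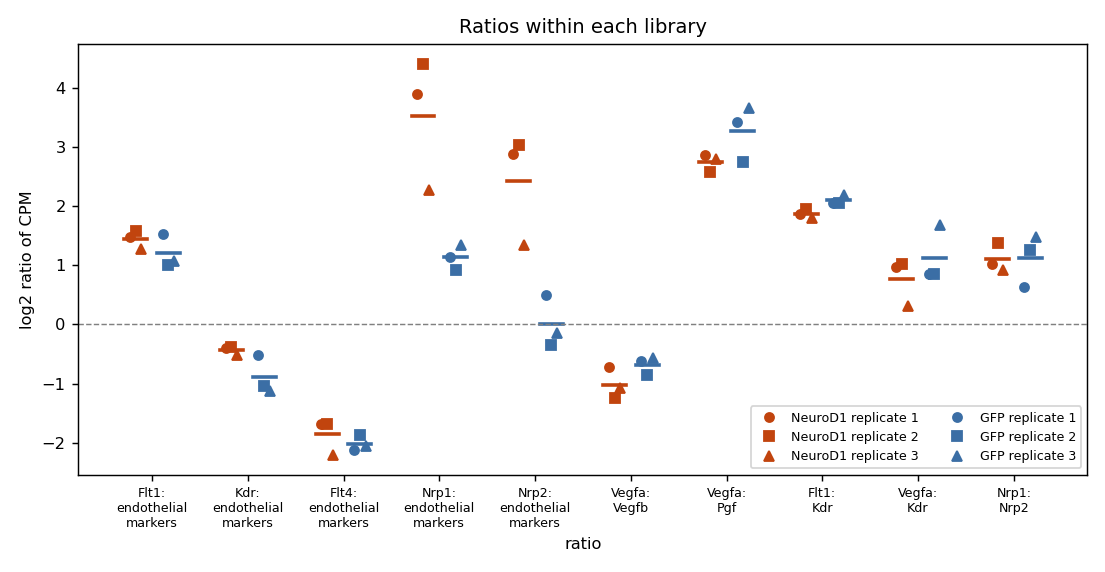
Log2 ratios within each library, with NeuroD1 (orange) left of GFP (blue), shapes for replicates and bars at the group means. Endothelial markers are the mean log2 CPM of 20 genes. The groups separate for Nrp1 and Nrp2 over endothelial markers and for Flt1 over Kdr.

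Neuropilins are also made by macrophages, fibroblasts and neurons, and markers of some of these cells moved with them. The summed level of 11 markers of infiltrating myeloid cells was 7228, 11861 and 3739.6 CPM in NeuroD1 replicates 1 to 3 and 1719, 3215 and 3078 CPM in the GFP replicates. All 11 had higher fitted levels, 10 at an unadjusted edgeR p under 0.05, led by the leukocyte integrin Itga4 (2.94-fold higher) and the macrophage gene F13a1 (7.07-fold higher). Fibroblast markers summed to 3537, 6143 and 1712 CPM with NeuroD1 and 996, 990.0 and 1882 CPM with GFP, with 6 of 9 higher at that threshold and 0 lower. They included Lum, a collagen-binding proteoglycan (4.05-fold higher), and Col3a1, a fibrillar collagen (4.18-fold higher). NeuroD1 replicate 2 was the highest and replicate 3 the lowest of the NeuroD1 libraries for Nrp1, Nrp2 and both marker sums. This order was also that of the microglia marker sum, at 4542, 5136 and 3387 CPM with NeuroD1. With GFP the microglia sum was 3487, 3452 and 2971 CPM, and 0 of its 10 markers were higher at that threshold. Among the GFP libraries Nrp1, the myeloid sum and the endothelial sum shared an order, with replicate 2 highest. By contrast, Nrp2 and the microglia sum were highest in replicate 1 and the fibroblast sum in replicate 3. The part of these cells in the neuropilin levels was not tested. Of the neuronal markers, 1 of 12 was higher (Gad2, a GABA synthesis enzyme, 1.90-fold) and 0 were lower, and Nefl, a neurofilament chain, was at 131 ± 63.1 CPM with NeuroD1 and 92.2 ± 56.6 CPM with GFP (SD, n = 3 each).

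Vegfa is made by astrocytes among other cells, and 3 of 12 astrocyte markers were lower and 0 higher at an unadjusted edgeR p under 0.05. The astrocyte sum was 9738, 5858 and 10652 CPM with NeuroD1 and 16273, 12585 and 9787 CPM with GFP, which overlapped, unlike Vegfa. The markers with the smallest p were S100b, a calcium-binding protein, 2.14-fold lower, and Aldoc, a glycolytic enzyme of astrocytes, 2.32-fold lower. The part of astrocyte content in the Vegfa level was not tested. The sums of mature oligodendrocyte markers did not overlap either, at 7169.7 to 9600.3 CPM with NeuroD1 and 10999 to 21052 CPM with GFP, with 4 of 9 lower. Nor did those of oligodendrocyte precursors, at 586 to 813 CPM with NeuroD1 and 474 to 547 CPM with GFP, with 4 of 7 higher. Microglia markers had 0 of 10 higher and 1 lower, the sialic acid receptor Siglech, and pericyte and smooth muscle markers 1 of 10 higher and 6 lower. Choroid plexus markers had 0 of 6 tested higher and 3 lower, and their sums overlapped. Lymphatic endothelial markers had 1 of 4 tested higher and 0 lower, with the chemokine Ccl21a at 0 counts in all libraries. Their sums were 105 to 120.1 CPM with NeuroD1 and 86.1 to 99.9 CPM with GFP. The higher gene was Reln, at 48.7, 15.8 and 44.6 CPM with NeuroD1 and 22.4, 13.8 and 15.1 CPM with GFP. Like the neuronal sum, Reln was lowest in replicate 2 among the NeuroD1 libraries. The sums alone do not show more lymphatic endothelium. Without GFP replicate 2, the library rich in choroid plexus markers, the log2 fold change of Vegfa was -0.98.

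**Figure D4:**
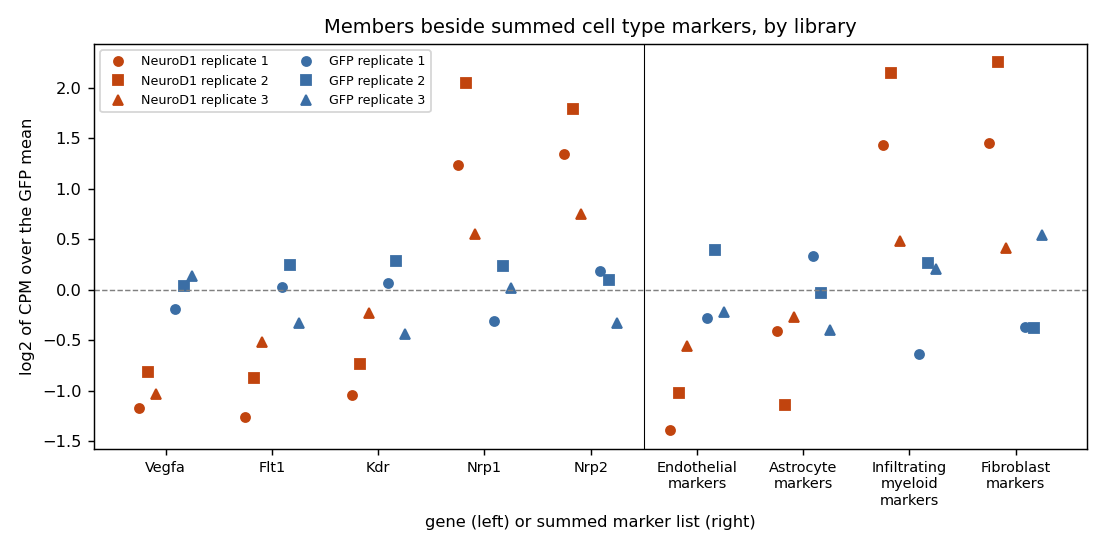
Log2 of CPM over the mean of the GFP libraries, for 5 members (left of the line) and 4 summed marker lists (right), with NeuroD1 libraries (orange) left of GFP libraries (blue). Nrp1 and Nrp2 show the same order of NeuroD1 replicates as the myeloid and fibroblast sums, and Flt1 and Kdr the same order of NeuroD1 replicates as the endothelial sum. Among the GFP replicates Nrp1, the myeloid sum and the endothelial sum share an order, and Flt1 and Kdr share another. The orders of Nrp2 and of the fibroblast sum differ from these and from each other.

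Further genes of the pathway were read from 7 lists, against 12.5% of all genes higher and 11.5% lower at an unadjusted edgeR p under 0.05 and a median log2 fold change of 0.02. Genes that relay the VEGF signal had 4 of 32 higher and 3 lower (median 0.12), shares close to those of all genes. Those with the smallest p were Nos3, the endothelial nitric oxide synthase, 2.58-fold lower, Rasip1, a regulator of small GTPases in endothelium, 2.39-fold lower, and Nfatc1, a calcium-driven transcription factor, 1.86-fold higher. Targets of VEGF and genes of sprouting tip cells had 3 of 18 tested higher and 7 lower (median -0.22). Nr4a1, an immediate-early receptor gene, was 2.19-fold lower, Robo4, an endothelial guidance receptor that is also an endothelial marker here, 2.96-fold lower, and the Notch ligand Dll4, 2.68-fold lower.

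Proteins that bind or traffic VEGF receptors had 8 of 22 higher and 1 lower, Robo4 again (median 0.49). The genes with the smallest p were Thbs1, a matrix protein that inhibits vessel growth, Itgav, an integrin subunit, 3.47-fold higher, and Cd44, a hyaluronan receptor, 2.52-fold higher. Thbs1 was at 115, 386 and 71.0 CPM with NeuroD1 and 16.4 ± 2.23 CPM with GFP (SD, n = 3), with NeuroD1 replicate 2 highest, as for Nrp1. Semaphorins of class 3 and plexins, the other partners of neuropilins, had 3 of 14 higher and 3 lower (median 0.40). Sema3d was 3.65-fold higher, and Sema3f, the ligand of Nrp2, and Sema3g, a semaphorin of vessels, were 1.86-fold and 2.29-fold lower.

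Genes that process VEGF-C or mark lymphatic vessels had 1 of 12 tested higher and 1 lower (median 0.17): Ccbe1, a cofactor of VEGF-C cleavage, 2.31-fold higher, and Sox18, an endothelial transcription factor, 2.30-fold lower, while the protease Furin was at 119 ± 47.3 CPM with NeuroD1 and 77.8 ± 1.24 CPM with GFP (SD, n = 3 each), not under that threshold. Regulators of Vegfa had 3 of 17 higher and 2 lower (median 0.04). Hif1a, the oxygen-sensing transcription factor that induces Vegfa in hypoxia, was at 258, 307 and 155 CPM with NeuroD1 and 128, 56.4 and 70.6 CPM with GFP, with no overlap and in the direction opposite to Vegfa. Esrra, a nuclear receptor that can induce Vegfa, was 1.47-fold lower and the transcription factor Sp1 1.58-fold higher. Epas1, another hypoxia-inducible factor, was the other lower gene, 1.59-fold, in the same direction as Vegfa but with overlapping groups. Hypoxia target genes other than Vegfa had 3 of 20 higher and 2 lower (median 0.18), shares close to those of all genes. The higher ones were the glycolytic genes Hk2, Pfkfb3 and Ldha, 1.69-fold, 1.97-fold and 1.50-fold. The lower ones were the glucose transporter gene Slc2a1, 1.72-fold, and Bnip3l, 1.34-fold. The smallest adjusted p of any gene was 0.136 in the edgeR test, so none of these genes passed it.

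**Figure D5:**
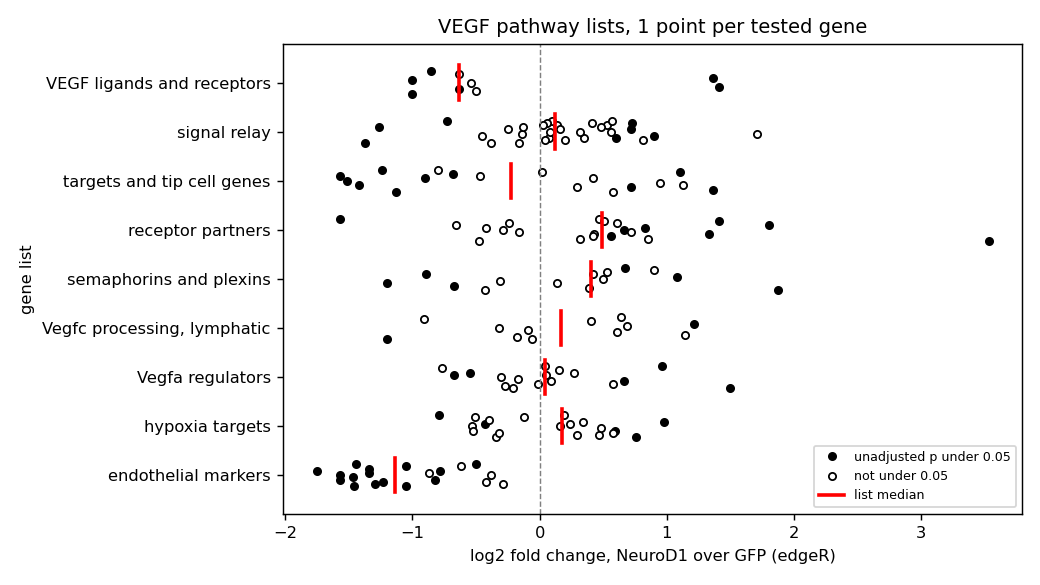
Log2 fold change, NeuroD1 over GFP, of the 9 members and each tested gene in the VEGF pathway lists and the endothelial marker list. Points are filled where the unadjusted edgeR p was under 0.05, and the list median is in red. The median of the members lies at -0.63, those of the other pathway lists between -0.22 and 0.49, and that of the endothelial markers at -1.14.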

How the data were processed

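Bulk RNA sequencing of 6 cortex samples was analysed from the table the authors deposited, which lists raw counts of reads for each gene symbol. Per the file headers, featureCounts made them from mm10 gene models. The submitters' processing notes name DESeq2 1.16.1, HISAT2 2.0.1 and GRCm38, with no role for any of them. How strand and multi-mapped reads were handled is not stated there. Columns were matched to samples by the sample description, and no replicate pair was treated as a duplicate. Groups were compared by quasi-likelihood tests in edgeR 4.0.16 under R 4.3.3 (TMM scaling, filterByExpr with a minimum count of 10 and minimum total of 15, treatment as the only term), fitted on all 14852 genes kept and adjusted by Benjamini-Hochberg at 0.05. Standard errors and 95% intervals were derived from the F statistic. Ratios used log2 CPM with a prior count of 0.5 and two-sided exact permutation tests. Alternatives were DESeq2 1.42.0, limma-voom (limma 3.58.1), other scalings and filters, a replicate block and leaving out each library. Offsets for transcript length and GC content (natural splines with 4 degrees of freedom, 14327 genes matched), a fit without Rn45s, and the overlap counts under other scalings and left-out libraries were added after seeing the data. Lengths and coordinates are from GENCODE M21 (GRCm38), and exon lengths are the union over transcripts. The tests were tested on simulated data. Members and gene lists were chosen with earlier results of these data known. Genes named are the 9 members, the 3 genes with the smallest p in each pathway list, up to 2 genes with the smallest p in each marker list described, and the 3 genes most like Vegfa, Flt1 and Kdr. Vegfd (Figf), Ccl21a, Mir1903, Slc2a1 and Bnip3l were named after their values were seen.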

Additional observations from a re-analysis of the deposited data

How the results depend on the processing

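All 9 members kept the sign of their fold change under every alternative that gave a value. The count of members at an unadjusted p under 0.05 was 6 with RLE size factors, no filter, the stricter filter (at least 50 counts in 3 libraries, which removed Vegfc and Pgf), DESeq2, limma-voom, the length and GC offsets and the fit without Rn45s, 7 with upper quartile scaling, and between 4 and 6 with a library left out (4 without NeuroD1 replicate 1 or GFP replicate 2). Members whose groups did not overlap numbered between 5 and 8 with a library left out, against 31.8% to 50.7% of all genes. Over all genes, the edgeR count past an adjusted p of 0.05 was 0, between 0 and 1 with a library left out, and 1366 with DESeq2. At an unadjusted p under 0.05 the main fit had 3564 genes, RLE size factors gave 3620 and upper quartile scaling 3537. No filter gave 4029, the stricter filter 2988, DESeq2 4114 and limma-voom 3529. The length and GC offsets gave 3395 and the fit without Rn45s 3579. The number of genes tested differed among these settings. With a library left out this count over all genes was between 1804 and 4374. It was 1804 when GFP replicate 2 was left out, 1891 for GFP replicate 3 and 2015 for NeuroD1 replicate 1. The cause was not tested. With the replicate block, 479 genes passed, among them Vegfa and Nrp2 (adjusted p = 0.0455 each, edgeR), and 6 members had an unadjusted p under 0.05, against 33.8% of all genes. Same-numbered samples correlated in their deviations from the group means at 0.51, 0.35 and 0.05. Samples with different numbers correlated at between -0.44 and 0.12. Each same-numbered value was the highest for its NeuroD1 sample, though for replicate 3 it was 0.05 against 0.02 with GFP replicate 1. The labels do not say that the numbers pair the samples, and pairing was not tested. The block fit was therefore kept as an alternative. The Nrp1 to Nrp2 ratio, close to 0 in its difference, lay between -0.27 and 0.16 with a library left out, turning to 0.03, 0.07, 0.05 and 0.16 without NeuroD1 replicate 1, NeuroD1 replicate 3, GFP replicate 2 and GFP replicate 3. The other 9 ratios kept their sign under every alternative run for ratios, which did not include the length and GC offsets. Vegfc and Pgf had the fewest counts of the members, 21 to 64 per library.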

Other observations

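The genes whose pattern over the 6 libraries was most like that of 3 members were found among 12558 other genes with a mean above 5 CPM, by the mean absolute difference of log2 levels centred on the mean of each gene. All 6 libraries entered this measure, which carries the group difference and was not tested. Nearest to Vegfa were Qtrtd1 (0.062 log2 units), Ddit3 (0.074), the transcription factor of the unfolded protein response, and Zfhx2 (0.083), a homeobox gene. Ddit3 was at 20.7, 21.3 and 22.3 CPM with NeuroD1 and 39.0, 45.8 and 48.9 CPM with GFP, with no overlap. Nearest to Flt1 were Myh14 (0.056), a non-muscle myosin heavy chain, Gstm5 (0.074), a glutathione transferase, and Fam213a (0.078). Nearest to Kdr were Epas1 (0.087), Dlx1 (0.097), an interneuron transcription factor, and Pir (0.1). Epas1, the endothelial hypoxia-inducible factor, was at 197, 241 and 287 CPM with NeuroD1 and 429, 444 and 282 CPM with GFP, so that, as for Kdr, GFP replicate 3 lay within the range of NeuroD1.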
